A study of Mus musculus with 6 samples.

Results

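The 27 genes described here encode receptors for the inhibitory transmitters GABA and glycine, 2 proteins that hold these receptors at the synapse, and 2 transporters that set the chloride gradient the receptors work on. They were taken by gene symbol, and all 27 have a row among the 24346 rows of each library's table. The series compared brain of mouse embryos labelled embryonic day 17.5. In 3 libraries the labelled genotype is miR-124a-1/2 DKO, a double knockout of 2 of the genes that make the neuronal microRNA miR-124a. The 3 libraries labelled control are given as miR-124a-1+/-. By that label they too lack 1 copy of miR-124a-1, so neither group is labelled wild type. The labels give no strain, sex, litter or breeding scheme and do not say that the libraries of a group came from separate animals. The p-values below set each difference between the groups against the spread between libraries within a group, estimated in part from all tested rows. That spread may be technical.

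GABA-A and glycine receptors are chloride channels built from subunits around a central pore, and the subunits present set where a receptor sits and how it responds. GABA-A receptors usually combine alpha and beta subunits with a gamma or delta subunit, whereas rho subunits can form channels on their own, known best from the bipolar cells of the retina. GABA-B receptors are pairs of G protein-coupled subunits. Whether an opened chloride channel inhibits a neuron depends on the chloride importer NKCC1 (Slc12a2), prominent in immature neurons, and the exporter KCC2 (Slc12a5), prominent in mature ones.

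Levels are in FPKM, a fragment count divided by transcript length and by mapped fragments, so genes of different length can be compared. The 6 tables sum to 402832 to 436299 FPKM. FPKM keeps no read total, but the steps between low values placed the depth of the other 5 libraries at 0.956 to 1.24 times that of DKO replicate 1. Genes of the mature retina stood among the high values in both groups. The rod genes Sag and Gnat1 measured 2841 to 3594 and 2544 to 2861 FPKM, and the photoreceptor factors Nrl and Crx 593 to 679 and 467 to 546 FPKM. Defining genes of the labelled tissue and age were low. Neurod6 and Tbr1 of cortical neurons measured 0.493 to 1.08 and 0.741 to 1.34 FPKM, Emx1 is listed at 0 throughout, and Mki67 and Top2a of dividing cells measured 0.0765 to 0.262 and 0.127 to 0.341 FPKM. The markers therefore go against the labelled tissue in both groups, and the groups are named here only by their labels. The labelled genotypes were not checked, and the headers of the DKO columns read CKO instead.

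Of the 27 genes, 22 had a mean of at least 1 FPKM over the 6 libraries and were tested, and 5 were below it. Slc12a5 was the highest, with a mean of 170.0 FPKM over the 6 libraries. The GABA-B subunit gene Gabbr1 (66.1), the adhesion protein gene Nlgn2 (58.7) and the rho subunit genes Gabrr1 (47.9) and Gabrr2 (28.7 FPKM) came next, in that order, and no 2 neighbours among these 5 overlapped in their ranges over the libraries. Below them Gabrr2, Gphn and Glrb lay within each other's spread, as did Gabbr2 and Gabra2, and the run of Gabra2, Gabrr3, Gabra3, Slc12a2, Gabrb2 and Glra2, in which each neighbour overlapped the next. Of the 22 tested genes, Slc12a5 stood at the 97.4th percentile of mean level among all 13215 tested rows and Glra4 at the 8.37th.

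**Figure D1:**
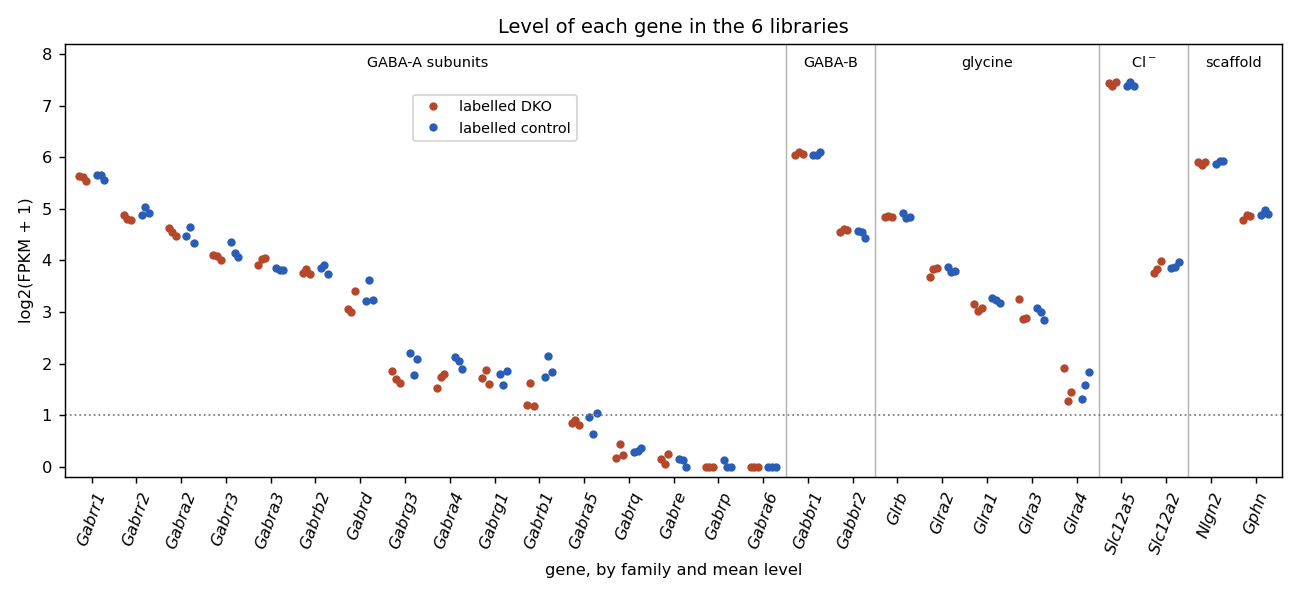
Level of each of the 27 genes as log2(FPKM + 1), grouped by family, with 1 point per library, red for libraries labelled DKO and blue for libraries labelled control; the dotted line marks 1 FPKM. Slc12a5 is the highest at a mean of 170.0 FPKM, the rho genes Gabrr1 and Gabrr2 lead the GABA-A subunits, and 5 GABA-A subunit genes lie below 1 FPKM on average.

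Subunits of the rho class made up most of the summed level of the 16 GABA-A subunit genes described here. Further subunit genes of the family are not analysed here, so the shares hold for these 16 alone. The 3 rho genes held 58.3, 57.0 and 56.2% of the sum in DKO replicates 1 to 3 and 58.4, 57.0 and 58.2% in control replicates 1 to 3. The 2 groups overlapped, and the mean over all 6 libraries was 57.5%. Gabrr1, Gabrr2 and Gabrr3 held 50.5 to 52.9%, 29.2 to 32.5% and 17.1 to 19.9% of the rho sum. The order of the 3 was the same in all 6 libraries.

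Gabrr1 encodes the rho1 subunit and lies on chromosome 4 (GRCm38, 33132521 to 33163588, plus strand), 36.7 kb downstream of Gabrr2 (33062999 to 33095865, plus strand), while Gabrr3 is on chromosome 16. Gabrr1 measured 48.5, 48.3 and 45.3 FPKM in the DKO libraries and 49.7, 49.7 and 46.0 FPKM in the control libraries. These values overlapped, with a log2 fold change of -0.03 (95% interval -0.15 to 0.09; limma with Benjamini-Hochberg adjustment, adjusted p = 0.925). All fold changes here are DKO minus control on the log2(FPKM + 1) scale, which understates the change of low genes.

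Gabrr2, the rho2 gene, measured 28.6, 26.97 and 26.6 FPKM in the DKO libraries and 28.6, 31.9 and 29.4 FPKM in the control libraries. Every DKO value lay below every control value, but the nearest pair, 28.55 and 28.60 FPKM, differed by little. The log2 fold change was -0.13 (95% interval -0.26 to 0.0096), and Gabrr2 did not pass (limma, Benjamini-Hochberg adjusted p = 0.660). Gabrr3, the rho3 gene, measured 16.3, 16.1 and 15.2 against 19.5, 16.8 and 15.7 FPKM, with overlap. Its log2 fold change of -0.12 rested largely on control replicate 1, without which it was -0.036.

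Beside the rho genes, the 7 bipolar cell markers (Vsx1, Grm6, Trpm1, Pcp2, Prkca, Cabp5 and Isl1) summed to 622 to 638 FPKM in the DKO libraries and 677 to 706 FPKM in the control libraries. None of the 7 was listed at 0. Most of that gap came from Pcp2, at 260 ± 6.32 against 302 ± 18.6 FPKM (SD, n = 3 each). Trpm1, at 112 ± 4.25 against 124 ± 3.14 FPKM (SD, n = 3 each), Isl1, Vsx1 and Cabp5 also had lower means in the DKO libraries. Grm6 had a higher one, at 59.6 ± 3.92 against 57.2 ± 1.82 FPKM (SD, n = 3 each). Prkca of rod bipolar cells was at 52.4 ± 1.91 and 52.4 ± 1.96 FPKM (SD, n = 3 each). The part of these markers in the rho values was not tested. In bulk RNA, fewer cells of a type and less RNA per cell cannot be told apart.

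**Figure D2:**
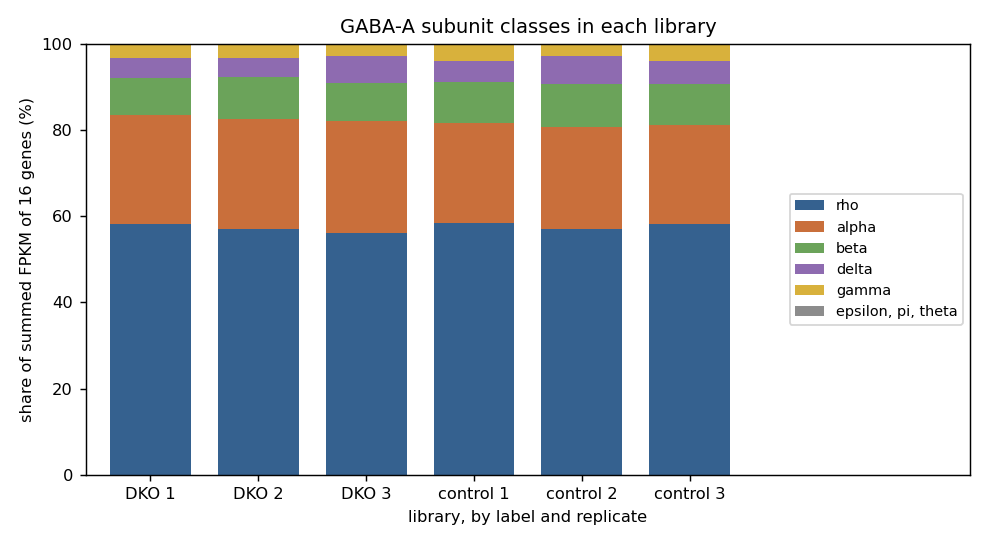
Share of each GABA-A subunit class in the summed FPKM of 16 subunit genes, 1 bar per library, in percent. The rho class holds 56.2 to 58.4% in every library, and alpha 25.3 to 25.9% in the libraries labelled DKO against 23.0 to 23.6% in those labelled control.

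Alpha subunits were the next class, and their share differed between the groups without overlap. The 5 alpha genes held 25.3, 25.7 and 25.9% of the sum in the DKO libraries and 23.4, 23.6 and 23.0% in the control libraries. The summed FPKM of the 5 genes did overlap, at 40.5, 41.1 and 40.1 FPKM against 39.1, 40.8 and 36.0 FPKM, and the total of all 16 genes was 155 to 160 against 157 to 173 FPKM, so the gap in the share rests in part on the other classes. As this is a score over chosen genes it carries no test. Gabra2 and Gabra3 made up nearly all of it. Gabra2, whose alpha2 subunit is known from axon initial segments and other synapses, measured 23.8, 22.5 and 21.3 FPKM against 21.3, 23.9 and 19.1 FPKM, with overlap and a log2 fold change of 0.07 (-0.0042 without control replicate 3).

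Gabra3 was the 1 tested gene of the 27 whose DKO values all lay above the control values. This alpha3 gene of the X chromosome measured 14.1, 15.4 and 15.5 FPKM in the DKO libraries and 13.5, 13.1 and 13.2 FPKM in the control libraries. The log2 fold change was 0.16 with SE 0.062 and a 95% interval of 0.02 to 0.31. It did not pass over all rows (adjusted p = 0.592 in limma, Benjamini-Hochberg). Of the 13215 rows of the fit, 6.96% had every DKO value above every control value, against 4.55% (1 of 22) of the tested genes here.

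The 6 amacrine cell markers (Tfap2a, Tfap2b, Gad1, Slc6a9, Slc32a1 and Pax6), none of them at 0, summed to 437 to 453 FPKM in the DKO libraries and 382 to 407 FPKM in the control libraries. Like Gabra3 and the alpha share, this sum was higher in every DKO library. So was that of the 5 markers listed for dividing cells, at 6.21 to 6.80 against 4.53 to 4.90 FPKM. These were Mki67, Top2a, Ccnb1, Cdk1 and Eomes, none at 0. Mki67 and Top2a supplied little of it, at means of 0.222 and 0.241 FPKM in the DKO libraries. In the control libraries their means were 0.164 and 0.235 FPKM. Most of the gap thus lay in Ccnb1, Cdk1 and Eomes, and whether dividing cells differed was not tested. The part of the amacrine and dividing-cell markers in the values of Gabra3 and the alpha share was not tested either.

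Gabrb1 and Gabra4 were lower in every DKO library than in any control library, and they are neighbours. Gabrb1, 1 of the beta subunit genes, measured 1.28, 2.06 and 1.27 FPKM in the DKO libraries and 2.34, 3.44 and 2.59 FPKM in the control libraries. Its mean was 1.54 ± 0.456 against 2.79 ± 0.574 FPKM (SD, n = 3 each), a ratio of 0.551. The log2 fold change was -0.58 with SE 0.17 and a 95% interval of -0.97 to -0.20, the largest of the 22 tested genes in size. Gabrb1 still did not pass over all rows (limma, Benjamini-Hochberg adjusted p = 0.467, and 0.302 to 0.751 over the 14 alternatives that tested it).

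Gabra4, whose alpha4 subunit is known from extrasynaptic receptors, measured 1.88, 2.34 and 2.50 FPKM in the DKO libraries and 3.38, 3.12 and 2.71 FPKM in the control libraries. The means were 2.24 ± 0.319 and 3.07 ± 0.334 FPKM (SD, n = 3 each), a ratio of 0.729. The log2 fold change was -0.33 (SE 0.12, 95% interval -0.61 to -0.05) and did not pass (limma, Benjamini-Hochberg adjusted p = 0.582). Both genes are low ones, at the 9.44th and 12.4th percentile of tested rows, and the number of fragments behind their values is not known.

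The 2 genes start on opposite strands within the same stretch of chromosome 5. Gabrb1 runs along the plus strand (GRCm38, 71658113 to 72149037) and Gabra4 along the minus strand (71569749 to 71658308) in the GENCODE annotation, where their ends overlap by 196 bases. In RefSeq the first bases are 71657921 for Gabrb1 and 71658308 for Gabra4, so that 388 bases lie in both genes. The library kit keeps strand, but the strand setting used in counting is not given in the sources used here, so reads from the shared stretch cannot be placed with certainty. The 2 promoter windows, each 250 bases before to 50 bases after the RefSeq start, are shown because the genes were low together; both are GRCm38.p6 and written 5′ to 3′ on the gene's own strand, with no base in capitals since no searched motif was present.
Gabrb1 (chr5:71657671-71657970, plus strand): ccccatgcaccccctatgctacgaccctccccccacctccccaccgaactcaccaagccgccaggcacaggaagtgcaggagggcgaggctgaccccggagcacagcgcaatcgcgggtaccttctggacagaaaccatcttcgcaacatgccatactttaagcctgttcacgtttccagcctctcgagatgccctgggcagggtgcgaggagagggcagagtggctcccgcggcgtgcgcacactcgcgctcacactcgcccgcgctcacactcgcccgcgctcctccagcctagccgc
Gabra4 (chr5:71658259-71658558, minus strand): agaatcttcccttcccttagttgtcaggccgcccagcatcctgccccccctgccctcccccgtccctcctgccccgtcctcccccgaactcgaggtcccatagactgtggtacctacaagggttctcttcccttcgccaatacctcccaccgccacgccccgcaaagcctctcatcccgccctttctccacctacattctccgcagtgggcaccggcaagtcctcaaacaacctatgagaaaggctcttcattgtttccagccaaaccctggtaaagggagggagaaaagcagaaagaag

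The windows held 66.0% G+C and 25 CpG pairs for Gabrb1 and 58.7% and 12 for Gabra4, against a median of 52.7% and 7 over 32851 RefSeq windows. The last 50 bases of each window lie inside the shared stretch, at its opposite ends. A second RefSeq start of Gabrb1 has a window from 71699682 to 71699981. The files give 1 value per gene, so the starts cannot be told apart.

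The other 2 genes of this chromosome 5 cluster overlapped between the groups. Gabra2 is described above, and Gabrg1, a gamma subunit gene 115.0 kb from Gabra2, measured 2.31, 2.68 and 2.04 FPKM against 2.47, 1.99 and 2.61 FPKM. Its groups overlapped (log2 fold change -0.0064, 95% interval -0.30 to 0.28), and its sign changed when single libraries were left out. Gabrg3, the other gamma gene here and a neighbour of Gabra5 on chromosome 7, measured 2.61, 2.26 and 2.07 FPKM against 3.58, 2.41 and 3.28 FPKM. Its groups overlapped only in that DKO replicate 1 lay above control replicate 2. Its log2 fold change of -0.30 did not pass (adjusted p = 0.660 in limma with Benjamini-Hochberg).

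**Figure D3:**
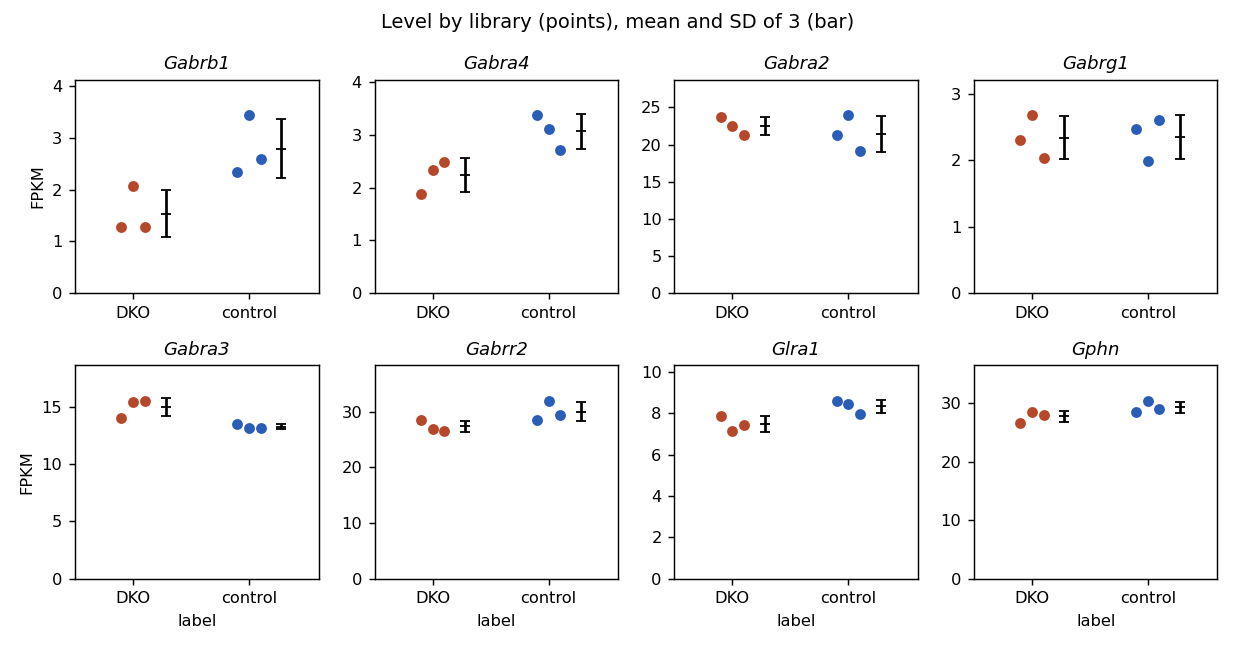
FPKM by library for the 4 genes of the chromosome 5 cluster (upper row) and for Gabra3, Gabrr2, Glra1 and Gphn (lower row), with points for libraries and bars for mean and SD of 3. Gabrb1 and Gabra4 have every DKO point below every control point, whereas their cluster neighbours Gabra2 and Gabrg1 overlap.

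Among the remaining GABA-A subunits, Gabrb2 was the higher of the 2 beta genes by a wide margin in every library. It measured 12.6, 13.3 and 12.3 FPKM against 13.4, 14.04 and 12.3 FPKM, with overlap and a log2 fold change of -0.05. Gabrd encodes the delta subunit of extrasynaptic receptors and measured 7.34, 7.01 and 9.63 FPKM against 8.34, 11.2 and 8.39 FPKM. DKO replicate 3 and control replicate 2 were the high libraries of their groups, and the groups overlapped (log2 fold change -0.20, 95% interval -0.53 to 0.13). Without control replicate 2 the log2 fold change was -0.07, and without DKO replicate 3 it was -0.33 (limma, Benjamini-Hochberg adjusted p = 0.710).

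The 5 genes below 1 FPKM were all GABA-A subunits, and none is given a fold change. Gabra5, known from the hippocampus, measured 0.801, 0.863 and 0.756 FPKM in the DKO libraries and 0.950, 0.562 and 1.05 FPKM in the control libraries. Gabrq (theta) lay between 0.120 and 0.352 FPKM, and Gabre (epsilon) between a listed 0 in control replicate 3 and 0.180 FPKM. Gabrp (pi), known from epithelia, was above 0 only in control replicate 1, at 0.0897 FPKM. Gabra6, a gene typical of cerebellar granule cells, is listed at 0 in all 6 libraries.

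The GABA-B subunit genes differed little between the groups. Gabbr1, whose subunit binds GABA, measured 65.3, 67.9 and 66.1 FPKM in the DKO libraries and 64.8, 65.0 and 67.4 FPKM in the control libraries. Gabbr2, whose subunit couples to the G protein, measured 22.5, 23.5 and 23.1 FPKM against 22.9, 22.4 and 20.6 FPKM. The level of Gabbr1 was 2.83 to 3.28 times that of Gabbr2, with the highest ratio in control replicate 3. Both genes had overlapping groups, with log2 fold changes of 0.01 (95% interval -0.08 to 0.11) and 0.07 (-0.07 to 0.20).

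Glycine receptor genes were led by Glrb, the beta subunit that binds gephyrin. Glrb measured 27.9, 28.2 and 27.7 FPKM in the DKO libraries and 29.1, 27.5 and 27.8 FPKM in the control libraries. The 4 alpha genes together came to 0.998 to 1.11 times the level of Glrb. Glra2 was the highest alpha gene in every library, at 11.8, 13.3 and 13.5 FPKM against 13.6, 12.7 and 12.8 FPKM. It held 38.1 to 47.4% of the alpha sum, the least in DKO replicate 1.

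Glra1 showed no overlap between the groups, at 7.89, 7.13 and 7.42 FPKM in the DKO libraries and 8.60, 8.44 and 7.97 FPKM in the control libraries. The log2 fold change of this alpha1 gene was -0.14 (95% interval -0.31 to 0.03), which did not pass (limma, Benjamini-Hochberg adjusted p = 0.709). Glra3 measured 8.55, 6.24 and 6.36 FPKM against 7.42, 6.98 and 6.16 FPKM, with DKO replicate 1 apart from the rest. Its log2 fold change of 0.03 turned to -0.10 without that library. Glra4 was the lowest alpha gene, at 2.74, 1.42 and 1.75 FPKM against 1.49, 2.00 and 2.60 FPKM, a log2 fold change of -0.04 with a wide 95% interval of -0.49 to 0.42.

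The transcripts of both synaptic proteins differed little between the groups. Gphn encodes gephyrin, the scaffold under glycine and many GABA-A receptors, which also acts in molybdenum cofactor synthesis. It measured 26.7, 28.4 and 28.05 FPKM in the DKO libraries and 28.5, 30.4 and 28.9 FPKM in the control libraries, without overlap but with 28.44 and 28.50 FPKM as the nearest pair. The log2 fold change was -0.08 (95% interval -0.19 to 0.04; limma, Benjamini-Hochberg adjusted p = 0.775). Nlgn2, the neuroligin of inhibitory synapses, measured 59.0, 56.7 and 59.5 FPKM against 57.5, 59.8 and 59.9 FPKM, with overlap and a log2 fold change of -0.02 (95% interval -0.12 to 0.09).

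Slc12a5 was far above Slc12a2 in every library. The exporter gene measured 173, 166 and 175 FPKM in the DKO libraries and 165, 176 and 165 FPKM in the control libraries. The importer gene Slc12a2 measured 12.6, 13.3 and 14.9 FPKM against 13.4, 13.7 and 14.6 FPKM. The ratio of Slc12a5 to Slc12a2 was 13.7, 12.5 and 11.7 in the DKO libraries and 12.3, 12.9 and 11.3 in the control libraries, with overlapping groups. Neither gene passed, with log2 fold changes of 0.02 (95% interval -0.08 to 0.12) and -0.03 (-0.21 to 0.14; limma, Benjamini-Hochberg adjusted p = 0.945 and 0.948).

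Of the other exporters of this transporter family, Slc12a7 (KCC4) measured 2.62, 2.91 and 2.76 FPKM in the DKO libraries and 3.38, 3.30 and 3.29 FPKM in the control libraries. Its groups did not overlap, and its log2 fold change of -0.20 did not pass (adjusted p = 0.653 in limma with Benjamini-Hochberg). Slc12a4 (KCC1) measured 5.67, 6.70 and 6.63 FPKM against 5.94, 6.30 and 6.09 FPKM, with overlap. Slc12a4 is named beside its relatives after its values were seen.

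**Figure D4:**
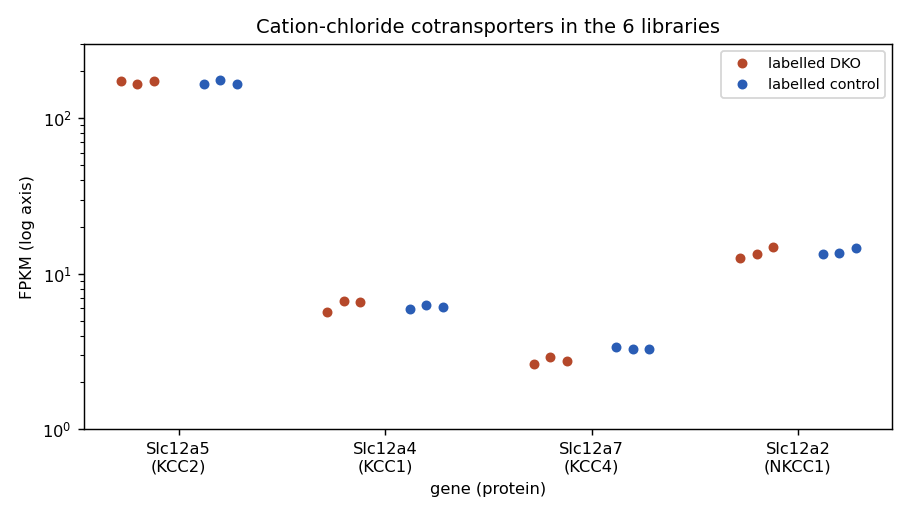
FPKM of 4 cation-chloride cotransporter genes on a log axis, 1 point per library, red for DKO and blue for control. Slc12a5 lies at 165 to 176 FPKM and Slc12a2 at 12.6 to 14.9 FPKM with overlapping groups, whereas Slc12a7 lies at 2.62 to 2.91 FPKM in the DKO libraries and 3.29 to 3.38 FPKM in the control libraries.

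Over the whole set, 0 of 22 tested genes passed in limma with Benjamini-Hochberg adjustment over all rows, where 3 of 13215 rows, or 0.0227%, passed. At an unadjusted limma p under 0.05 there were 3 of the 22 genes (13.6%), against 7.88% of all tested rows. Gabra3 was the 1 on the higher side (4.55%, against 3.52% of rows), and Gabra4 and Gabrb1 were the 2 on the lower side (9.09%, against 4.36% of rows). Every DKO value lay below every control value in 5 of the 22 genes, or 22.7%, against 6.95% of rows. These were Gabra4, Gabrb1, Gabrr2, Glra1 and Gphn, with the narrow gaps given above for Gabrr2 and Gphn. Besides the bipolar markers, the 5 ganglion cell markers (Pou4f1, Pou4f2, Rbpms, Sncg and Nefl), none at 0, also had a lower sum in every DKO library, 458 to 480 against 497 to 540 FPKM, and their part in these values was not tested. Their median was 18.3 to 24.5 FPKM over the libraries, so most of the sum lay in the markers above it. The lower sum therefore need not hold for each of the 5, which were not read singly. The summed markers of rods (7343 to 8063 against 7650 to 8520 FPKM), horizontal cells, Müller glia, cortical projection neurons and forebrain interneurons overlapped between the groups.

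More of the 22 tested genes had a fold change below 0 than above it, with 16 below and 6 above and a median log2 fold change of -0.03, against 6678 below, 6537 above and a median of -0.0016 over all tested rows. The GABA-A subunits carried most of this, with 9 of 11 below 0 and a median of -0.12. The glycine receptor genes had 4 of 5 below 0 with a median of -0.02, and both GABA-B genes lay above 0. These counts describe a chosen list and carry no test.

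**Figure D5:**
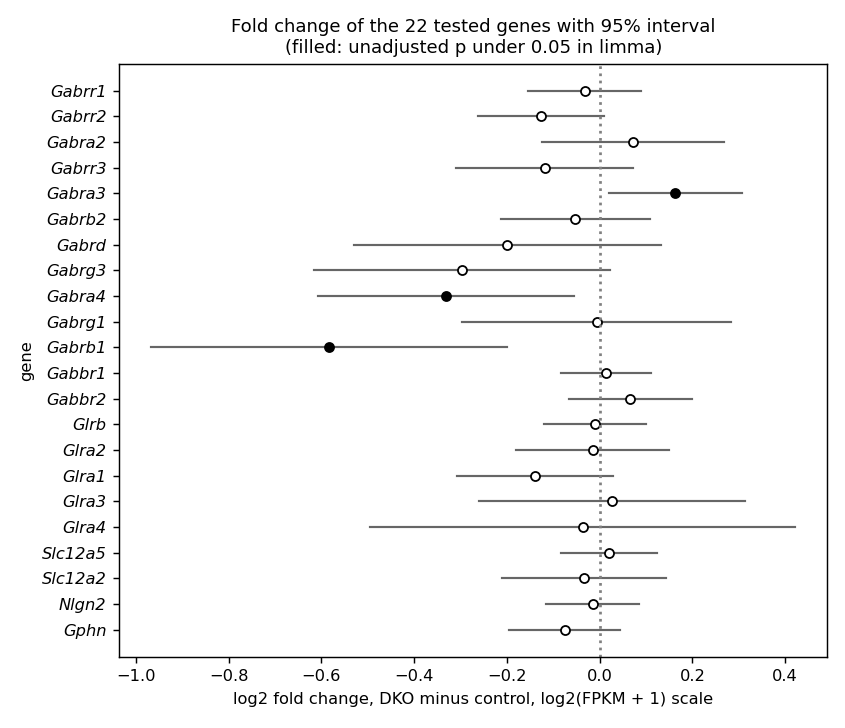
Log2 fold change, DKO minus control on the log2(FPKM + 1) scale, of the 22 tested genes with 95% intervals from limma; filled points have an unadjusted p under 0.05. The intervals of Gabra3, Gabra4 and Gabrb1 leave out 0, and none of the 22 genes passed after adjustment over all rows.

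Genes that make, move and anchor these transmitters and receptors were read from 4 lists with 69 genes, of which 64 were tested. Of these, 39 had a fold change above 0 and 25 below, 0 passed (limma, Benjamini-Hochberg over all rows), and 7 higher and 2 lower had an unadjusted p under 0.05, or 10.9% and 3.12%, against 3.52% and 4.36% of all tested rows. In the list of GABA and glycine synthesis and transport, 10 of 12 tested genes lay above 0 with a median log2 fold change of 0.07, and 3 (25.0%) had an unadjusted limma p under 0.05, all higher. Gad1, which makes GABA, measured 124, 122 and 121 FPKM in the DKO libraries and 110, 112 and 107 FPKM in the control libraries, a log2 fold change of 0.16 (adjusted p = 0.395 in limma with Benjamini-Hochberg). Gad2, the other GABA-making enzyme gene, measured 16.12, 16.03 and 15.63 FPKM against 14.5, 13.3 and 12.9 FPKM, a log2 fold change of 0.22 (adjusted p = 0.467 in limma with Benjamini-Hochberg). The groups of neither gene overlapped. Gad1, Slc32a1, which was the third of these genes, and Slc6a9, also in the list, are amacrine markers summed above.

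In the list of receptor scaffolds, trafficking and auxiliary proteins, 15 of 26 genes lay above 0, with a median of 0.0095 and 3 genes (11.5%) at an unadjusted limma p under 0.05, all higher. Of the 7 GABA-B effector genes, 4 lay above 0 and none had an unadjusted limma p under 0.05. Chloride transporters, channels and their kinases had 10 of 19 tested genes above 0, with 1 higher (5.26%) and 2 lower (10.5%) at an unadjusted limma p under 0.05. The higher one was Clcn5, an endosomal chloride-proton exchanger, at 5.98, 5.65 and 5.63 FPKM against 4.27, 4.70 and 3.65 FPKM (log2 fold change 0.38; adjusted p = 0.414 in limma with Benjamini-Hochberg). The lower ones were the anion exchanger Slc4a3 (log2 fold change -0.14) and Stk39 (-0.15), a kinase that acts on cation-chloride cotransporters. The groups of both did not overlap, and neither passed (limma, Benjamini-Hochberg adjusted p = 0.592 and 0.613).

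Seed sites of miR-124-3p, the mature microRNA made from the miR-124a genes, were sought in the 27 transcripts. The letters GTGCCTT, complementary to bases 2 to 8 of miR-124-3p, were searched in the longest GENCODE 3' untranslated region (UTR) of each gene on the transcript strand. This 7-base site was present in 3 of 27 genes, namely Gabrg3, Slc12a2 and Slc12a5. All 3 are among the 22 tested genes (13.6%), against 2081 of 12173 tested genes with such a region (17.1%). The median length of the region was 2081 bases in the 27 genes and 1437 bases in the tested genes. The sites of Gabrg3 and Slc12a5 are shown as the stretches where the seed of the microRNA could pair, 5′ to 3′ with the 7-base site in capitals; positions count from the first base after the stop codon.
Gabrg3, first site, positions 7191 to 7197: accaagtttcttggGTGCCTTgattatctg
Gabrg3, second site, positions 7770 to 7776: cccttgtgcccaacGTGCCTTggcgacccc
Slc12a5, positions 735 to 741: ggaagtcctgcccgGTGCCTTcgtggagga

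None of these sites is followed by the A that makes the longer 8-base site. In the region of the transcript with the longest coding sequence, Gabrg3 and Slc12a2 held the 7-base site and Slc12a5 did not. The fold changes of the 3 genes with a site were -0.30 for Gabrg3, -0.03 for Slc12a2 and 0.02 for Slc12a5 on the log2 scale, a median of -0.03. The 19 tested genes without this 7-base site had a median of -0.03 as well, but a median of 3 genes is too coarse to show a difference. Over all tested genes with such a region, the median was -7.5e-05 for the 2081 with the site and -0.0021 for the 10092 without it. The other 7-base form, TGCCTTA, which pairs with bases 2 to 7 and ends in A, was present in Gabra2, Gabra6, Gabrb1 and Gabrg3. Of the 22 tested genes 3 hold it (13.6%), against 14.4% of tested genes. Gabrb1, with the longest annotated region of the 27 (12228 bases), thus holds this form but not the first.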

How the data were processed

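RNA was extracted with TRIzol and made into stranded mRNA libraries, per the labels' protocols. The authors deposited FPKM values, 1 table per library keyed by gene symbol; the DKO columns are named CKO per the file headers. Per the submitters' processing notes, the tools were Cuffdiff 2.2.1, TopHat2 2.1.1 and Bowtie2, with build mm10; for options, annotation and strand setting the sources used here say nothing. Median ratios to the mean library were 1.00 in all 6, so the values were used as deposited.

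After a filter at a mean of 1 FPKM over the libraries, log2(FPKM + 1) values were fitted in R 4.3.3 by limma 3.58.1 (eBayes with a trend, DKO minus control, Benjamini-Hochberg over all 13215 tested rows, threshold 0.05). The fit was tested on simulated data. Python 3.11.15 with pandas 2.3.3 was used for the rest. Untranslated regions come from GENCODE M21 (GRCm38) and promoter windows from RefSeq (GRCm38.p6), which matched 24 of the 27 genes. The members and lists were chosen with earlier results of these data known. Some genes of the lists are not reported here and were left out of the lists and counts. Named are all 27 members and, from what is left of the 4 lists, the 3 higher and 3 lower genes of smallest p. Alternatives were pseudocounts, filters, scalings, variance models, the replicate block and leaving out each library.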

Additional observations from a re-analysis of the deposited data

How the results depend on the processing

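In each of the 15 alternatives 0 of the genes tested there, 17 to 26 of the 27, passed in limma with Benjamini-Hochberg adjustment. The count at an unadjusted limma p under 0.05 was 3 as reported and 2 or 3 in the alternatives, except 4 with eBayes without a trend, which added Gabrg3, and 1 with a mean of at least 5 FPKM, where Gabra4 and Gabrb1 were no longer tested. Gabrb1 was among them in all 14 alternatives that tested it. Gabra3 was not when DKO replicate 2 or 3 or control replicate 2 or 3 was left out, nor Gabra4 without DKO replicate 1, control replicate 1 or control replicate 2. Leaving out single libraries also brought other genes in. Gabrr2 entered without DKO replicate 1 and without control replicate 1, Gabrd without DKO replicate 3, and Gabrg3 without control replicate 2. Over all rows the count of 3 became 1 with eBayes without a trend and 1 without control replicate 2 (1 to 4 over single libraries left out); the cause was not tested. With the replicate block 2 rows and 0 members passed. The correlations of the libraries' deviations from their group means were 0.072, 0.0063 and 0.10 for equal numbers and -0.12 to 0.036 for unequal ones. DKO replicates 1 and 3 correlated best with the control of equal number, and DKO replicate 2 with control replicate 1. Such deviations sum to 0 within a group of 3, so this measure cannot settle whether the numbers pair the libraries. The count of 3 genes with a seed site became 0 with the 8-base site, which needs a further base, and 4 with the 7-base form ending in A. It became 2 in the region of the longest coding sequence, where Slc12a5 dropped out.

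Of 22 tested genes, 13 kept the sign of their fold change in every alternative and 9 did not. Under quantile normalization Glrb turned to 0.00071 and Nlgn2 to 0.0093. Leaving out single libraries gave ranges of -0.0042 to 0.15 for Gabra2, -0.089 to 0.060 for Gabrg1, -0.0015 to 0.032 for Gabbr1, -0.049 to 0.042 for Glra2, -0.10 to 0.098 for Glra3, -0.22 to 0.099 for Glra4, -0.025 to 0.015 for Glrb, -0.097 to 0.017 for Slc12a2 and -0.034 to 0.0055 for Nlgn2. Gabrb1 ranged from -0.73 to -0.46 and Gabra4 from -0.40 to -0.25. The rho share stayed at 57.3 to 57.9% and the alpha share at 24.1 to 24.8%. FPKM without read totals gives no counting interval, which limits what can be said of genes near 1 to 3 FPKM.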

Other observations

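The promoter windows of Gabrr1, Gabrr2 and Gabrr3 had 47.3, 49.3 and 47.0% G+C with 9, 2 and 3 CpG pairs in 300 bases. Every other gene of the set with a higher mean level than Gabrr3 had more G+C, from 63.7% in 1 of the windows of Slc12a5, the highest gene, to 80.3% in Gabbr2. Gabra3, whose level overlaps that of Gabrr3, had less, at 39.3 and 43.0% with 0 CpG pairs in its windows. Among the other genes of lower level than Gabrr3, Gabrg1 (38.3%), Gabra6 (42.0%) and 1 window of Gabrb2 (41.0%) also had less. The remaining windows of these lower genes had 50.3% or more. Low G+C was thus not particular to the rho genes. Of the 29 RefSeq windows of 24 matched genes, 2 (6.90%) held the 6-base OTX and CRX core TAATCC on either strand, against 7.06% of 32851 windows. These were the windows of Gabrr2, where the core begins at position -246, and of Gabra2, where it begins at -139, counted from the first transcribed base. These genes were singled out after their values were seen.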
